A study of Mus musculus with 2 samples.

Results

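*Ednra* and *Ednrb*, the genes of the 2 endothelin receptors, were followed inside the glial and mural cells of mouse dorsal root ganglia (DRG). Both were found by their symbol among the 32285 genes of the count matrices, and their counts of unique molecular identifiers (UMIs, one per captured transcript) were read in 13720 cells of 8 types, 6953 from replicate 1 and 6767 from replicate 2, out of 16310 cells retained in all. Whole L4 and L5 DRGs of naive female C57BL/6 mice, 3 months old, had been dissociated, live cells sorted and single-cell 3′ libraries made with the 10x platform. The series has 2 such samples, both of this single condition, so comparisons were made between cell types and between cells of a type, with the sample as the replicate, and p-values measure only the spread between these 2 samples. Neither sample was injured or treated, and the sources used here do not give the number of mice behind each sample.

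Endothelins are short vasoactive peptides that are cut from larger precursors by the endothelin converting enzymes *Ece1* and *Ece2* and broken down by neprilysin, encoded by *Mme*. They act on G-protein-coupled receptors, endothelin receptor A (ETAR, gene *Ednra*), best known for contraction of vascular smooth muscle, and endothelin receptor B (ETBR, gene *Ednrb*), known from endothelium, neural crest derivatives and astrocytes. In the DRG, satellite glial cells (SGCs) wrap the bodies of sensory neurons, Schwann cells wrap their axons, and pericytes and smooth muscle cells, together called mural cells, wrap the vessels. In the annotation of build GRCm38, *Ednra* lies on the minus strand of chromosome 8 from 77663031 to 77724464 (ENSMUSG00000031616) and *Ednrb* on the minus strand of chromosome 14 from 103814625 to 103844402 (ENSMUSG00000022122). Both are protein-coding.

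Cells were clustered without the 7 genes of endothelins, receptors and converting enzymes, and clusters were named from marker genes, so each name below means cells that looked like that type by its markers. The 5 glial types were SGC state 1 (1542 and 1588 cells in replicates 1 and 2), SGC state 2 (1988 and 1804), *Pou3f1*-positive glia (820 and 732), non-myelinating Schwann cells (655 and 723) and myelinating Schwann cells (1614 and 1653). The 3 mural types were pericytes (137 and 89), mural cells with intermediate levels of smooth muscle genes (103 and 110, called intermediate mural cells here) and smooth muscle cells (94 and 68). Markers separated most of these groups widely. *Scn7a*, a marker of non-myelinating Schwann cells, stood at 1704 and 2051 CPM (UMIs of a gene scaled to a fixed total of UMIs per profile) there and at no more than 37.2 CPM in the other types. *Myh11*, the smooth muscle myosin, rose from 474 and 385 CPM in pericytes to 1799 and 1975 in intermediate mural cells and 3989 and 3774 in smooth muscle cells, while the pericyte channel gene *Kcnj8* ran the other way, from 441 and 487 through 55.3 and 36.8 to 1.15 and 10.7 CPM. The split of SGCs was weaker. *Acsbg1*, a marker of state 1, was at 524 and 582 CPM in state 1 against 213 and 233 in state 2, and all 3 markers of state 1 were lower in state 2. Of the 3 markers of state 2 none passed the test between the states (*Lgr5* at 350 and 363 CPM in state 2 against 243 and 253 in state 1). The label of state 2 therefore rests on lower state 1 markers. The states differed in other genes too, with 13.3% of all genes called. Of 19 immediate early and dissociation stress genes, 14 were higher in state 2 and 0 lower (median log2 0.96). Of 18 cholesterol synthesis genes, 16 were lower in state 2 and 1 higher. The part of these differences in the split, or in *Ednrb* between the states, was not tested.

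Libraries held 119101743 and 128668771 UMIs. Median UMIs per cell ran from 5196 (myelinating Schwann cells, replicate 1) to 18994 (SGC state 1, replicate 2). Of all cells called, 135 barcodes were found in both libraries, 117 of them with under 2000 UMIs in one library, and 29 cells of the 8 types carried such a barcode. Leaving them out kept each of the 5 main receptor comparisons on its side of the threshold, and 37 in place of 30 genes then varied with *Ednrb* in *Pou3f1*-positive glia. A cluster of 214 cells with myelin and SGC markers together (95.7% and 71.1% of its cells scored as doublets in replicates 1 and 2) and a mural cluster of 57 cells led by glial genes (100% scored as doublets in both) were kept out of the types.

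*Ednrb* was highest in *Pou3f1*-positive glia. Its level in those glia was 1778 and 1753 CPM (replicates 1 and 2 in this order, here and below), in SGC state 2 at 1174 and 1196, in SGC state 1 at 905 and 952, in non-myelinating Schwann cells at 440 and 424 and in myelinating Schwann cells at 141 and 141. The replicates of neighbouring glial types did not overlap. By edgeR's quasi-likelihood test on UMIs summed per sample and type, adjusted over 15433 genes, *Pou3f1*-positive glia exceeded the mean of the SGC states by 0.57 on the log2 scale (SE 0.11, adjusted p = 0.000249, where 33.8% of genes were called) and SGC state 2 alone by 0.44 (SE 0.13, adjusted p = 0.0206, 18.6% called). They exceeded non-myelinating Schwann cells by 2.09 (SE 0.14, adjusted p = 3.42e-12, 23.4% called). The step between the SGC states was smaller. State 2 exceeded state 1 by 0.26 on the log2 scale (SE 0.13, adjusted p = 0.244, 13.3% of genes called), which did not pass the threshold. SGC state 1 lay 1.39 above non-myelinating Schwann cells (SE 0.14, adjusted p = 2.45e-09, 40.2% called), and these 2.80-fold above myelinating Schwann cells (SE 0.14 on the log2 scale, adjusted p = 7.92e-10, 39.9% called). *Ednrb* thus ran down in steps from *Pou3f1*-positive glia to myelinating Schwann cells, with the order of the SGC states not settled by the test.

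*Ednra* was the receptor gene of mural cells, at 618 and 585 CPM in pericytes, 583 and 469 in intermediate mural cells and 409 and 390 in smooth muscle cells. Smooth muscle cells were lowest in both replicates. Pericytes exceeded smooth muscle cells by 0.35 on the log2 scale (edgeR, SE 0.12, adjusted p = 0.0342, 19.4% of genes called), but this call was not stable. It was lost with DESeq2 (adjusted p = 0.0714), with mural cells sub-clustered at a resolution of 0.5 (adjusted p = 0.0515) and at a clustering resolution of 1.2 (difference 0.12, adjusted p = 0.608), and the difference turned to -0.20 (adjusted p = 0.234) when the mural cluster led by glial genes was counted with the pericytes. Neither step beside it passed the test, with pericytes 0.16 above intermediate mural cells (SE 0.11, adjusted p = 0.501, 10.1% called) and these 0.19 above smooth muscle cells (SE 0.12, adjusted p = 0.401, 9.89% called). The scaling matters at this size, since TMM normalization moved the comparison of pericytes with smooth muscle cells by 0.24 and that of *Pou3f1*-positive glia with SGCs by 0.18 on the log2 scale relative to library size alone.

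*Ednrb* was also present in mural cells, and there it followed pericyte identity far more than *Ednra* did. It stood at 123 and 149 CPM in pericytes, 47.4 and 50.9 in intermediate mural cells and 20.7 and 12.2 in smooth muscle cells. Pericytes exceeded smooth muscle cells by 2.74 on the log2 scale (edgeR, SE 0.29, adjusted p = 2.44e-08) and intermediate mural cells by 1.41 (SE 0.22, adjusted p = 4.55e-05), and intermediate mural cells exceeded smooth muscle cells by 1.34 (SE 0.34, adjusted p = 0.00819). The level in pericytes was of the size of that in myelinating Schwann cells, whose 141 CPM in each replicate lay between the pericyte values.

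**Figure D1:**
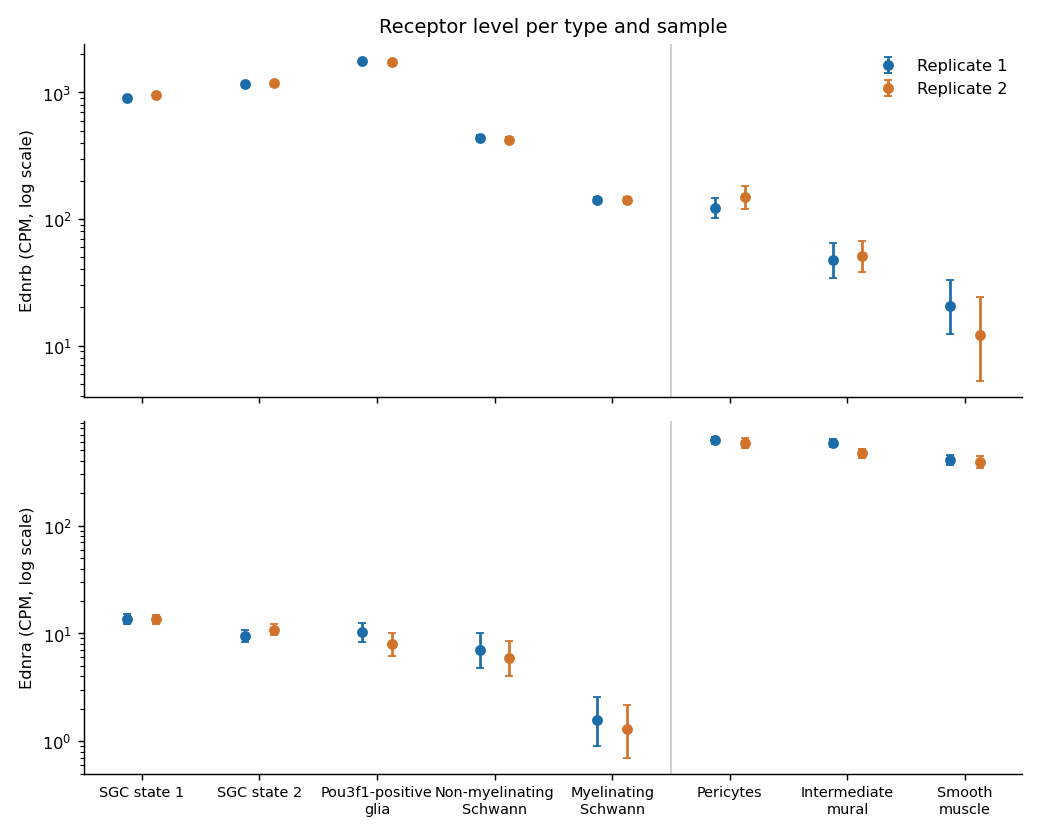
*Ednrb* (upper panel) and *Ednra* (lower panel) in CPM on log axes for each type, with a point per replicate and bars for exact 95% Poisson intervals of the UMI count, which cover counting error only. *Ednrb* falls from 1778 and 1753 CPM in *Pou3f1*-positive glia to 20.7 and 12.2 in smooth muscle cells, and *Ednra* stays between 390 and 618 CPM in mural cells and at no more than 13.6 CPM in glia.

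Each receptor gene had a low level in the other lineage, which was set against the RNA of empty droplets. The largest share of a profile that could be such RNA was bounded by assigning to it all UMIs of a gene foreign to the type, *Fabp7* of SGCs for mural cells and *Rgs5* of pericytes for glia. In pericytes, empty-droplet RNA could account for at most 12.8 and 19.4 CPM of *Ednrb*, against 123 and 149 measured. In intermediate mural cells the bounds were 8.37 and 17.5 CPM, against 47.4 and 50.9 measured. In smooth muscle cells they were 7.71 and 11.5 CPM, and the 20.7 and 12.2 measured rested on 18 and 8 UMIs. *Ednrb* was therefore above this bound in pericytes and intermediate mural cells, while replicate 2 of smooth muscle cells was at it. The 12 SGC markers summed to 599 and 715 CPM in pericytes, 656 and 831 in intermediate mural cells and 577 and 759 in smooth muscle cells. They did not fall along the 3 types as *Ednrb* did, but those of non-myelinating Schwann cells, fibroblasts and endothelial cells did. Non-myelinating Schwann markers summed to 477 and 588, 130 and 219, and 107 and 172 CPM in this order of types. Perineurial markers rose instead, from 70.8 and 86.8 to 386 and 463 CPM. How far RNA of such cells adds to *Ednrb* in pericytes was not tested beyond the bound above.

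In glia, *Ednra* stood at 13.6 and 13.6 CPM in SGC state 1 (389 and 420 UMIs), 9.49 and 10.9 in SGC state 2, 10.3 and 7.99 in *Pou3f1*-positive glia and 7.07 and 5.96 in non-myelinating Schwann cells. Myelinating Schwann cells were lowest, with 1.58 and 1.29 CPM from 16 and 14 UMIs. The bound from empty droplets was 0.245 and 0.397 CPM in SGC state 1 and between 0.276 and 0.793 CPM in the next 3 types, well under the measured levels. In myelinating Schwann cells it was 0.844 and 0.868 CPM, close to what was measured. After each cell was thinned to 3000 UMIs, 3.97% and 3.28% of SGC state 1 cells held an *Ednra* UMI, against 0.341% and 0.524% of myelinating Schwann cells. Without thinning these shares were 19.1% and 19.7% (median depths 17923 and 18994 UMIs) against 0.682% and 0.847% (5196 and 5606 UMIs). *Ednra* was thus low but measurable in SGCs.

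**Figure D2:**
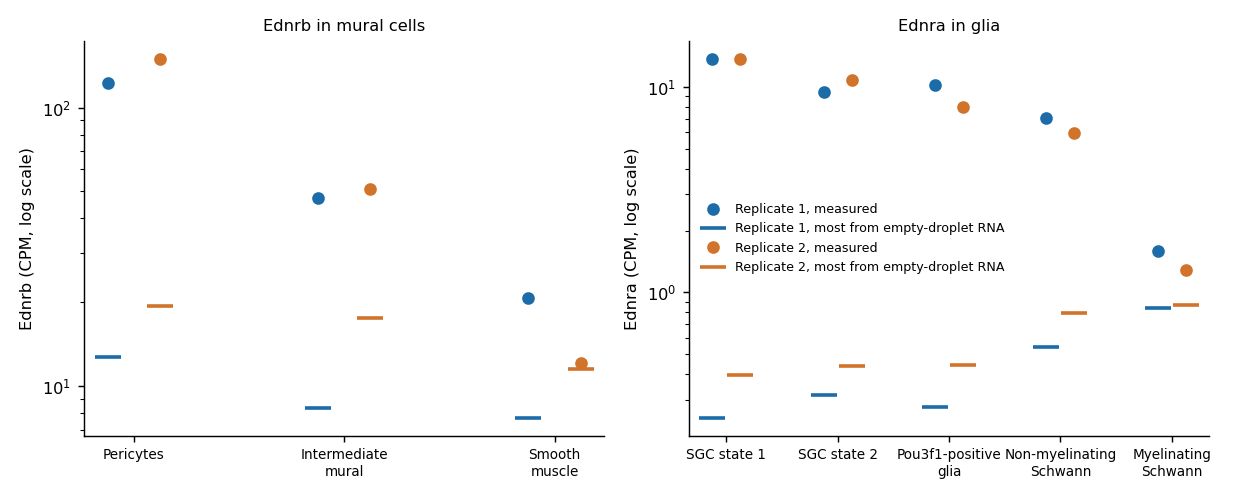
*Ednrb* in the mural types (left) and *Ednra* in the glial types (right), in CPM on log axes, with a point per replicate and a line for the most that empty-droplet RNA could give in that replicate. *Ednrb* in pericytes (123 and 149 CPM) and *Ednra* in SGC state 1 (13.6 CPM in each) stand clear of their lines, and *Ednra* in myelinating Schwann cells (1.58 and 1.29 CPM) lies near its lines at 0.844 and 0.868.

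Cells of a type differed in their receptor UMIs by more than counting alone gives in most types. To compare cells at equal depth, each was thinned to 3000 UMIs and cells below that were left out, at most 148 in any type and sample. The spread is given as the coefficient of variation that remains after the Poisson part is taken away, in percent of the mean. With a mean of 5.44 *Ednrb* UMIs per cell in each replicate, *Pou3f1*-positive glia ranged from 0 to 21 UMIs, with a spread of 48.3% and 51.8%. In SGC state 2 the mean was 3.68 and 3.78 UMIs and the spread 49.2% and 48.2%. SGC state 1 had a mean of 2.77 and 2.86 UMIs and the least spread of the glial types, 37.5% and 41.4%. In these 3 types few cells lacked *Ednrb*. A UMI was found in 96.8% and 97.1% of *Pou3f1*-positive glia, in 92.5% and 93.4% of SGC state 2 and in 90.8% and 89.0% of SGC state 1, where counting alone would leave 0.431% and 0.43%, 2.53% and 2.28%, and 6.23% and 5.74% of cells without one. Among genes of like mean level (means apart by a factor of no less than 0.8), between 63.3% and 72.4% had a smaller variance relative to the mean in these types, so *Ednrb* varied somewhat more than most such genes there.

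Schwann cells were far more uneven. Non-myelinating Schwann cells held a mean of 1.14 and 1.08 *Ednrb* UMIs with a spread of 108% and 132%, and 46.9% and 53.5% of them had no UMI where counting alone would leave 32.1% and 33.9%. Single cells reached 11 and 17 UMIs. Myelinating Schwann cells held a mean of 0.383 and 0.373 UMIs with a spread of 143% and 150%, and 74.2% and 74.7% had none, against 68.2% and 68.8% by counting. In these Schwann cells *Ednrb* was among the more uneven genes of its level. Its variance relative to the mean was above that of 91.7% and 98.2% of like genes in non-myelinating and of 96.5% and 97.5% in myelinating Schwann cells.

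Among mural cells, the spread of *Ednra* at 3000 UMIs was highest in pericytes, but it depended on depth. Pericytes held a mean of 1.84 and 1.63 *Ednra* UMIs with a spread of 80.9% and 66.0%, and 26.5% and 31.0% had none, where counting alone would leave 15.9% and 19.5%. Intermediate mural cells gave 43.2% and -4.60% and smooth muscle cells 34.0% and -8.54%, a negative value standing for less variance than counting gives. In these the replicates disagreed in sign, so a spread beyond counting was not settled with 102 and 108 and with 93 and 64 cells. *Ednrb* in pericytes had a mean of 0.434 and 0.414 UMIs and a spread of 110% and 115%, at a level where a few cells decide the value. After thinning to 1000 UMIs the mean spread over the replicates fell to 16.8% for *Ednra* and 21% for *Ednrb* in pericytes, and the replicates disagreed in sign for both (78.0% and -44.5% for *Ednra*, -96.9% and 139% for *Ednrb*).

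**Figure D3:**
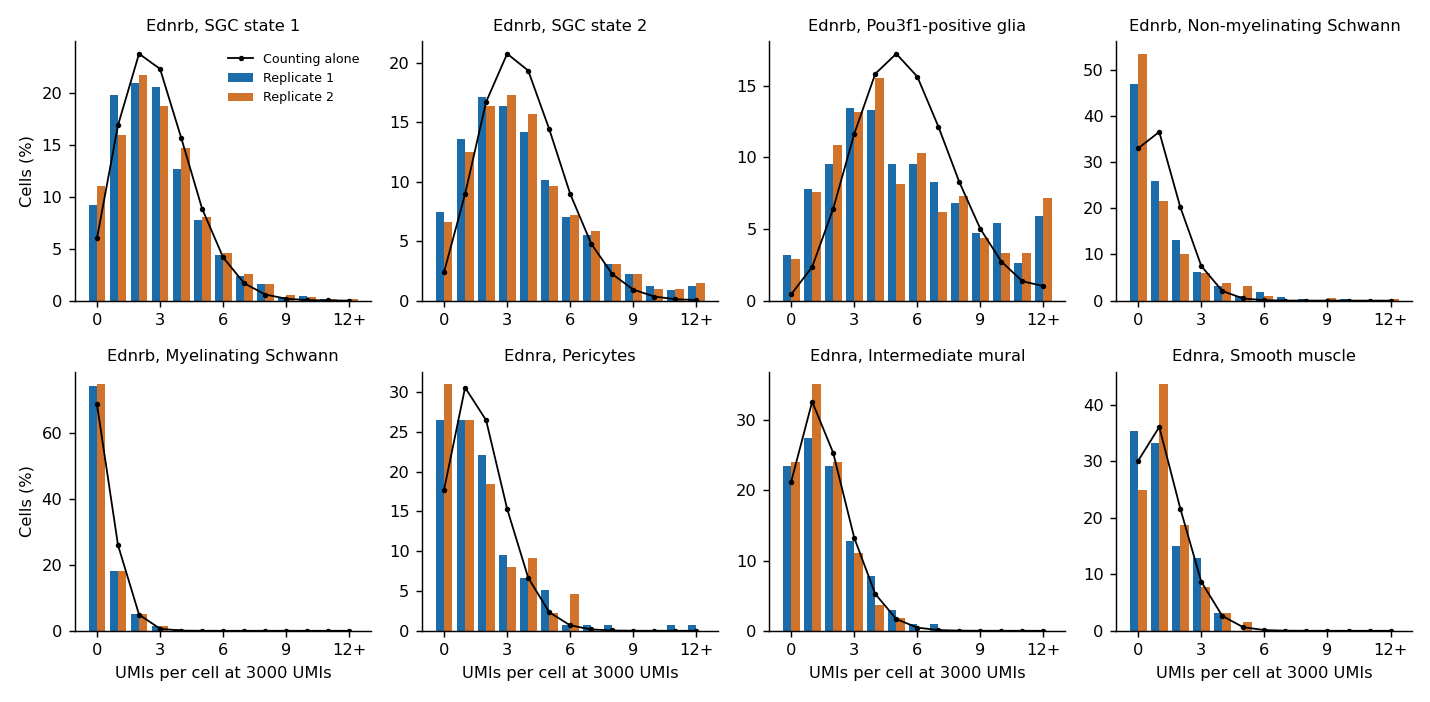
Share of cells (percent) by receptor UMIs per cell after thinning to 3000 UMIs, for *Ednrb* in the glial types and *Ednra* in the mural types, with bars per replicate and a black line for what counting alone would give at the mean of each replicate, averaged. Non-myelinating Schwann cells have 46.9% and 53.5% of cells at 0 and a tail that reaches 11 and 17 UMIs. Smooth muscle cells have 35.5% and 25% at 0, where counting alone gives 31.6% and 28.7%.

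At equal depth the share of cells with a UMI of both receptors was highest in pericytes, while SGCs, far more numerous, held more such cells. At 3000 UMIs, 25% of pericytes in replicate 1 (34 of 136, exact 95% interval 18% to 33.1%) and 20.7% in replicate 2 (18 of 87, 12.7% to 30.7%) held a UMI of each, where independence of the receptors would give 21.6% and 20.6%. In replicate 1, *Ednrb* was found in 34.0% of pericytes with *Ednra* and 16.7% of those without, and in replicate 2 in 30% and 29.6%. The replicates therefore did not repeat a preference of the receptors for the same cells. In intermediate mural cells 7.84% and 8.33% held both, and in smooth muscle cells 4.30% and 0 of 64 cells, which allows a share of up to 5.60% by the exact interval. Of SGC state 1 cells 3.58% and 2.90% held both (55 and 46 cells), of SGC state 2 cells 2.42% and 2.55% (48 and 46 cells) and of *Pou3f1*-positive glia 2.10% and 2.06%. Independence would give 3.60% and 2.92%, 2.38% and 2.39%, and 2.15% and 2.13%. In Schwann cells the shares were below 1%, from 3 to 6 cells.

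To find what varied with a receptor inside a type, the cells of each type and sample were ranked by their receptor UMIs at 3000 UMIs per cell and cut into 3 parts of equal size. The UMIs of the top part (*Ednrb*-high or *Ednra*-high cells) and of the bottom part (*Ednrb*-low or *Ednra*-low cells) were summed per sample and compared over 14537 genes with edgeR, leaving out the receptor that made the ranking. Between the parts, the receptor itself differed by construction. In SGC state 2, for example, *Ednrb*-high cells held a mean of 6.66 and 6.76 UMIs and *Ednrb*-low cells 1.15 and 1.23.

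In SGC state 1 only 2 genes were called as moving with *Ednrb*. *Ntm*, an adhesion molecule of the immunoglobulin family, was at 82.3 and 98.9 CPM in *Ednrb*-high cells and 45.9 and 55.9 in *Ednrb*-low cells, a rise of 0.83 on the log2 scale (SE 0.14, adjusted p = 0.00488). *Arhgef28*, a guanine nucleotide exchange factor, was at 35.5 and 40.6 against 23.6 and 25.5 CPM. These 2 genes were 0.0138% of genes tested, and 0% fell. None of the 19 immediate early and dissociation stress genes, the 18 cholesterol synthesis genes or the 22 glial transcription factors tested passed. With the replicate number as a block 12 genes passed, with no filter on low counts 22, and with cells ranked at 1000 UMIs none.

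In SGC state 2, 29 genes were higher in *Ednrb*-high cells (0.199% of those tested) and 48 lower (0.33%). The total of 77 ranged from 12 with cells ranked at 1000 UMIs to 220 with the replicate number as a block. The largest rise among genes over 20 CPM was that of *Pou3f1*, a POU-domain transcription factor of Schwann cells before they myelinate. It was at 57.1 and 54.4 CPM in *Ednrb*-high cells and 27.6 and 22.3 in *Ednrb*-low cells (log2 difference 1.16, SE 0.17, adjusted p = 4.25e-05). Both genes also differed between finer clusters into which cells of this state fell. At a clustering resolution of 1.2, 442 and 366 of its cells fell in a cluster that also took in 425 and 373 cells of SGC state 1. This cluster thus lay across both states. Its cells of state 2 held *Ednrb* at 943 and 919 CPM with *Pou3f1* at 6.36 and 11.5. Its cells of state 1 held 812 and 890 with 3.77 and 4.84. The larger 2 clusters of state 2 held *Ednrb* at 1227 and 1294 and at 1304 and 1237 CPM. *Pou3f1* was at 51.1 and 44.1 and at 34.8 and 37.0 in these clusters. Inside the largest of these 34 genes passed, *Pou3f1* among them (log2 1.42, adjusted p = 3.47e-05 by edgeR). The relative of this gene, *Pou3f2*, rose as well over all SGC state 2 cells, from 119 and 115 to 147 and 164 CPM. With them rose *Maml3*, a coactivator of Notch (log2 0.81), *Lrrtm4*, a leucine-rich repeat adhesion protein (0.81), *Gm16599* (0.78), *Bcl2l11*, which encodes the cell death protein BIM (0.64), *Pde10a*, a phosphodiesterase of cyclic nucleotides (0.58), *Tyrp1* (0.54), *Arhgef28* (0.51), *4930469K13Rik* (0.50) and *Dleu2* (0.49). The other gene that SGC state 1 had shown, *Ntm*, was not among them.

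Genes that fell with *Ednrb* in SGC state 2 were led by adhesion and matrix genes. *Cdh15*, a cadherin, was at 14.5 and 13.3 CPM in *Ednrb*-high and 43.0 and 52.5 in *Ednrb*-low cells (log2 difference -1.78, SE 0.14, adjusted p = 1.57e-11). *Postn*, the matrix protein periostin, was at 89.0 and 74.4 against 152 and 156 CPM (log2 -0.91, adjusted p = 6.95e-08). *Dcc*, a netrin receptor, fell by 1.24, *2900052N01Rik* by 0.95, *Gprc5c* by 0.95, *Megf11* by 0.92, *Morrbid*, a long noncoding RNA, by 0.80, *Cspg5*, a proteoglycan, by 0.77 and *Col15a1*, a collagen, by 0.77 on the log2 scale. Of 11 genes tested for coupling, potassium and glutamate handling, *Aqp4* (10.4 and 11.9 against 18.7 and 22 CPM) and *Kcnj16* (27.4 and 25.9 against 38.2 and 37.1 CPM) were lower and none was higher. The list's median was -0.15 against 0 over all genes tested. Cholesterol synthesis genes had a median of -0.20 and immediate early genes of 0.19, in both with no member called. *Ednrb*-high cells had fewer UMIs (medians 11481 and 12294 against 13005 and 13599), and their summed SGC markers were at 13783 and 13666 against 15293 and 15304 CPM. The part of these shifts in the result was not tested.

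In *Pou3f1*-positive glia, 8 genes rose with *Ednrb* (0.055% of those tested) and 22 fell (0.151%). The total of 30 was 13 with cells ranked at 1000 UMIs, 89 with the replicate number as a block and 106 with no filter on low counts. *Pou3f1* itself was at 606 and 563 CPM in *Ednrb*-high and 359 and 345 in *Ednrb*-low cells (log2 difference 0.73, SE 0.13, adjusted p = 0.0018), and *Pde10a* at 1184 and 1206 against 703 and 813 CPM (log2 0.66, SE 0.10, adjusted p = 0.000111). For both genes each *Ednrb*-high value exceeded each *Ednrb*-low value. Across types the levels of *Pou3f1* and *Ednrb* did not run together, since *Pou3f1* was at 752 and 841 CPM in myelinating Schwann cells, where *Ednrb* was lowest of the glia, against 464 and 434 in *Pou3f1*-positive glia. The other 6 were *Cdkn1c*, an inhibitor of cyclin-dependent kinases (log2 1.01, most of it in replicate 2 with 64.7 against 25.5 CPM), *Mpzl1* (0.44), *Ubl3* (0.43), *Maml3* (0.42), the homeobox gene *Cux1* (0.37) and *Sh3d19* (0.35).

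Lower in *Ednrb*-high cells of this type were *Timp1*, an inhibitor of matrix metalloproteinases, *Lgals3*, a galectin, and *Igfbp3*, a binding protein of insulin-like growth factors. *Lgals3* was at 27.0 and 27.4 CPM against 59.4 and 131 (log2 difference -1.79, SE 0.23, adjusted p = 5.06e-06). For *Timp1* the difference lay almost wholly in replicate 2, with 7.53 against 57.5 CPM there and 8.55 against 12.4 CPM in replicate 1. *Igfbp3* fell by 1.47, *Rims1*, a presynaptic scaffold, by 1.18, the unconventional myosin *Myo16* by 0.97, *Anks1b* by 0.91, *Nhs* by 0.91, *Fgf12* by 0.91, *Il34*, a ligand of the CSF1 receptor, by 0.83 and *Col15a1* by 0.82 on the log2 scale. *Pou3f1* was the only one of 22 glial transcription factors to pass, and no marker list of another cell type had a called member.

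The SGC state 2 and *Pou3f1*-positive results shared genes. Of the genes that rose, *Cux1*, *Maml3*, *Pde10a*, *Pou3f1* and *Sh3d19* were called in both, 5 genes that were 17.2% of those in SGC state 2 and 62.5% of those in *Pou3f1*-positive glia. Of those that fell, *Anks1b*, *Car2*, *Cntfr*, *Col15a1*, *Igfbp3*, *Myo16*, *Pmepa1* and *Tnc* were called in both, 8 genes or 16.7% and 36.4%. None was called in opposite directions. In SGC state 1, *Pou3f1* was at 19.2 and 7.35 CPM in *Ednrb*-high against 5.37 and 6.15 in *Ednrb*-low cells (log2 1.17, SE 0.28, adjusted p = 0.229), a difference that came from replicate 1 and did not pass. The correlation of *Pou3f1* with *Ednrb* over single cells was 0.137 and 0.194 in *Pou3f1*-positive glia (810 and 728 cells) and 0.0795 and 0.119 in SGC state 2 (1985 and 1801 cells), values from sparse counts of cells that share a library, given as a description.

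**Figure D4:**
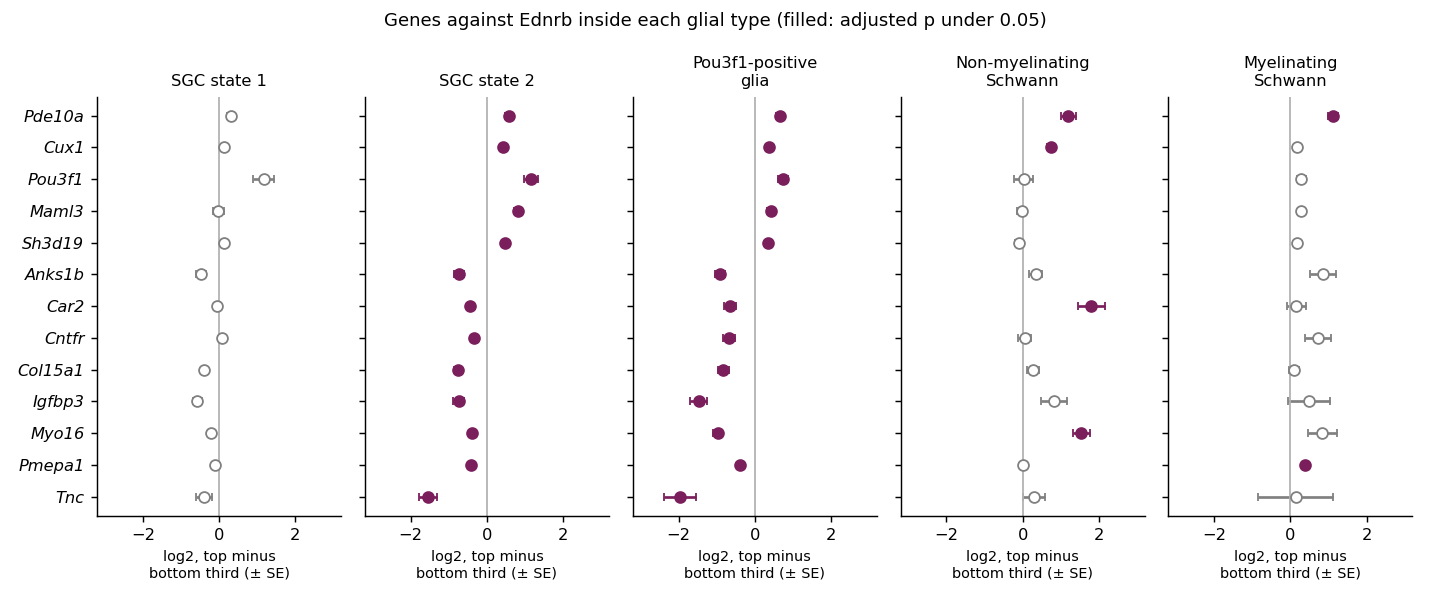
Log2 difference (± SE) between *Ednrb*-high and *Ednrb*-low cells for the 13 genes called in both SGC state 2 and *Pou3f1*-positive glia, in each of the 5 glial types; filled points passed the threshold of 0.05. *Pde10a* is above 0 and filled in 4 types, *Pou3f1* is filled in SGC state 2 (1.16) and *Pou3f1*-positive glia (0.73), and *Car2* and *Myo16* turn from negative there to 1.81 and 1.54 in non-myelinating Schwann cells.

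*Pde10a* was the gene called most widely. It was higher in *Ednrb*-high cells of 4 of the 5 glial types, with log2 differences of 0.58 in SGC state 2, 0.66 in *Pou3f1*-positive glia, 1.2 in non-myelinating and 1.11 in myelinating Schwann cells. In SGC state 1 it was at 176 and 143 against 133 and 124 CPM (log2 0.31, adjusted p = 1). Only *Cux1* and *4930469K13Rik* were called higher in 3 types, 79 genes in 2 types and 464 in a single type.

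Non-myelinating Schwann cells held the most genes that moved with *Ednrb*, with 464 higher (3.19% of those tested) and 321 lower (2.21%). *Trpm3*, a cation channel, was at 439 and 453 CPM in *Ednrb*-high and 113 and 118 in *Ednrb*-low cells (log2 difference 1.95, SE 0.12, adjusted p = 1.66e-16). *Ror1*, a receptor of WNT5A, had the largest rise, from 6.02 and 1.86 to 42.2 and 35.8 CPM (log2 3.36, SE 0.38, adjusted p = 4.51e-09). Further rises were those of *Dclk1* (log2 2.12), *Fras1*, an extracellular matrix protein (2.11), *Gja1*, which encodes connexin 43 (2.08), *Ctnnd2* (2.07), *Ptprt*, a receptor phosphatase, *Cntn1*, contactin 1 (1.90), *Pdgfc*, a platelet-derived growth factor (1.87), and *Cdh11*, a cadherin (1.83). 

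The 10 largest falls in these cells were those of *Ncmap*, a myelin protein (log2 -2.86), *Aldh1a1*, an enzyme of retinoic acid synthesis (-2.27), the Fc receptor gene *Fcgr2b* (-2.23), *Rassf4* (-2.01), *Fndc1* (-1.96), *Gfra3*, a co-receptor of artemin (-1.93), *Chd5* (-1.87), *Tenm1* (-1.86), *Pcdh11x* (-1.84) and *Igfbp7* (-1.80). *Igfbp7* was at 118 and 148 CPM in *Ednrb*-high and 478 and 452 in *Ednrb*-low cells. Defining genes of the type fell too. *Scn7a* was at 743 and 948 against 2602 and 2834 CPM (log2 -1.68, SE 0.11, adjusted p = 2.45e-16), and *Cadm2*, an axon-glia adhesion molecule, at 779 and 1106 against 3127 and 3327 CPM (log2 -1.77, SE 0.12, adjusted p = 2.2e-15). Of 12 markers of non-myelinating Schwann cells 6 were lower (among them *Scn7a*, *Cadm2*, *Chl1*, *Gfra3* and L1cam) and 1 higher (*Slc5a3*), and of 12 myelin markers 6 were lower and none higher.

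Genes of the SGC marker list moved in both directions there, more of them up than down. Of 12 SGC markers, 6 were higher (*Fabp7*, *Bcan*, *Ptprz1*, *Fbln2*, *Fbln5* and *Kcnj16*) and 2 lower (*Cdh19* and *Slc35f1*), with a median log2 of 0.40 over the list. The sum of the 12 was nearly level, at 11806 and 12385 CPM in *Ednrb*-high against 12153 and 12766 in *Ednrb*-low cells. The 2 lower genes weigh much in that sum, with *Slc35f1* at 2995 and 3130 against 4193 and 4144 CPM. *Slc35f1* was not particular to SGCs. Over all cells of this type it was at 3698 and 3815 CPM, against 1400 and 1439 in SGC state 1 and 1454 and 1436 in SGC state 2. *Fabp7*, a fatty acid binding protein of glia, was at 3506 and 3389 against 1639 and 1966 CPM. Of 22 glial transcription factors, 7 were higher and none lower, among them *Tcf4* (log2 1.01), *Sox4* (0.99) and *Id4* (0.87), with a median of 0.25 over the list against 0.01 over all genes. Of 18 cholesterol synthesis genes, 7 were higher and none lower, with a median of 0.43. *Hmgcs1*, which encodes an early enzyme of that pathway, rose by 0.78 on the log2 scale, and *Dhcr7*, a late one, by 0.83. Of the genes for coupling and for potassium and glutamate handling, *Slc1a3*, a glutamate transporter (log2 2.38), *Gja1* and *Kcnj16* (1.39) were higher and *Atp1b2*, a sodium pump subunit (-0.60), lower. No immediate early gene passed in this or any other type.

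*Ednrb* also differed between 2 finer clusters, seen when the clustering resolution was raised from 0.8 to 1.2. In the cluster with less *Scn7a* (859 and 929 CPM, 399 and 377 cells), *Ednrb* was at 587 and 614 CPM, and 32.3% and 34.4% of cells had no *Ednrb* UMI at 3000 UMIs. In the cluster with more *Scn7a* (3473 and 3689 CPM, 252 and 345 cells), *Ednrb* was at 130 and 144 CPM, and 70.2% and 73.8% had none. In both replicates the 2 clusters were far apart for *Ednrb* and for *Scn7a* alike. Over single cells the correlation of *Ednrb* with *Scn7a* was -0.37 and -0.41 (616 and 669 cells), and with *Fabp7* 0.231 and 0.216. With *Gja1* it was 0.00307 and 0.173, so the replicates differed, and with the transcription factor gene *Sox2* 0.0528 and 0.0406. Inside the larger finer cluster alone, 338 genes still passed and 16 of the 20 named genes were called, with fewer cells than in the whole type and a division chosen after seeing the data, while the spread of *Ednrb* fell from a mean of 120% to 91.7%. *Ednrb*-high cells were deeper (medians of 7223 and 7329 against 5704 and 6096 UMIs) and more often scored as doublets (7.32% and 12.1% against 2.44% and 2.69%). With cells scored as doublets left out 530 genes passed, 18 of the 20 named among them.

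**Figure D5:**
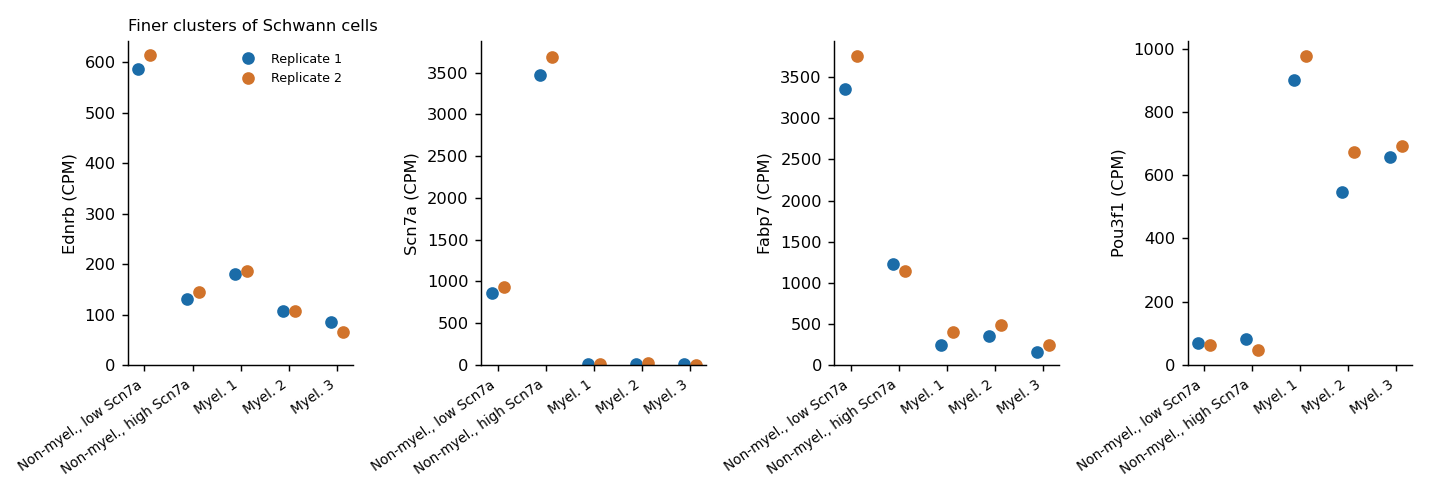
*Ednrb*, *Scn7a*, *Fabp7* and *Pou3f1* in CPM, with a point per replicate, in the 2 finer clusters of non-myelinating and the 3 of myelinating Schwann cells. *Ednrb* is at 587 and 614 CPM where *Scn7a* is low and at 130 and 144 CPM where *Scn7a* is high, and in myelinating Schwann cells it runs from 181 and 187 CPM down to 84.7 and 65.6 CPM.

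In myelinating Schwann cells, markers of SGCs and of non-myelinating Schwann cells were both higher where *Ednrb* was. There, 129 genes were higher in *Ednrb*-high cells (0.887% of those tested) and 41 lower (0.282%). The total of 170 ranged from 14 with cells ranked at 1000 UMIs to 306 with the replicate number as a block and 397 with cells ranked at 5000 UMIs. Most cells had no *Ednrb* UMI at 3000 UMIs (1088 of 1466 and 1141 of 1527), so the top part held every cell with a UMI and some without, and the bottom part only cells without. *Kcnj10*, a potassium channel of glia, was at 60.2 and 72.3 CPM in *Ednrb*-high and 31.2 and 26.7 in *Ednrb*-low cells (log2 difference 1.2, SE 0.15, adjusted p = 5.38e-07). *Nav2*, a neuron navigator protein, was at 58.7 and 59.6 against 17.1 and 23.9 CPM (log2 1.52). Also higher were *Astn2* (1.42), *Lgr5*, a receptor of R-spondins (1.36), *Fbln2*, a fibulin of the matrix (1.30), *Cdh20* (1.13), *Pde10a* (1.11), *Mdga2* (1.05), *Gpc6*, a glypican (1.05), and *Mmd2* (1.05). Of 12 SGC markers 5 were higher and none lower (median log2 0.48), and their sum was at 2231 and 2491 against 1897 and 1860 CPM. Of 12 markers of non-myelinating Schwann cells 3 were higher and none lower (*Chl1*, *Csmd1* and *Ncam1*, median 0.61), and their sum was at 1550 and 1542 against 1019 and 1187 CPM, while 12 myelin markers summed to 38172 and 39997 against 43788 and 47077 CPM.

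Lower in *Ednrb*-high myelinating Schwann cells were *Mfap5*, a microfibril protein (log2 -1.56), *Epha6* (-1.16), *Trf*, transferrin (-0.99), *Chrdl1* (-0.97), *Pak7* (-0.96), *Vat1l* (-0.83), *Cntf*, a trophic factor made by myelinating Schwann cells (-0.83), *Sbspon* (-0.76), *A330069K06Rik* (-0.67) and *Sult1a1* (-0.64). *Cntf* was at 98.7 and 123 against 143 and 250 CPM, with the replicates of each part not overlapping. The leukocyte genes *S100a8* and *S100a9* were also called higher, by replicate 2 alone (69.0 and 69.6 CPM there, 2.14 and 3.06 in replicate 1). The result in this type changed with the handling of doublets, and the cause was not tested. Cells scored as doublets made up 2.87% and 2.55% of *Ednrb*-high against 1.02% and 0.196% of *Ednrb*-low cells. Without them 38 genes passed, 11 of the 20 named among them, and with the mixed cluster of myelin and SGC markers counted in 1508 passed. Between non-myelinating and myelinating Schwann cells, 66 higher genes were shared, 14.2% of the former and 51.2% of the latter. Of the lower genes 10 were shared, 3.12% and 24.4%. Another 9 genes were lower in non-myelinating but higher in myelinating Schwann cells, and 1 was the reverse.

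In mural cells no gene rose with *Ednra*. In pericytes and in smooth muscle cells 0% of genes were called by edgeR, with 771 and 809 genes at an unadjusted p under 0.05, and DESeq2 called 11 in pericytes. The pericyte count depended on which cells were in the type, with 256 genes at a clustering resolution of 1.2 and 980 with the mural cluster led by glial genes counted in. In intermediate mural cells 1 gene was lower in *Ednra*-high cells (0.00688% of genes), and none with cells scored as doublets left out. *Ednrb* in pericytes was at 172 and 152 CPM in *Ednra*-high and 70.5 and 108 in *Ednra*-low cells, in both replicates higher (log2 0.93, SE 0.27, unadjusted p = 0.00119 and adjusted p = 0.616 by edgeR), which did not pass. These parts held 45 and 29 pericytes each, and a change of 2-fold was recovered for 21% of genes in simulated pericytes, so only large differences could be seen.

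Other genes of endothelin signalling were read in the same types. Of the ligands, *Edn3* was found in intermediate mural cells (21 and 23 UMIs, 23.7 and 21.7 CPM), where *Ednra* is high, and in pericytes with 1 and 5 UMIs, and was at 0 in smooth muscle cells, which allows up to 3.45 and 4.57 CPM. *Edn1* gave at most 6 UMIs in any profile of these types and *Edn2* at most 1. The converting enzyme gene *Ece1* was in every type, from 26.5 and 26.9 CPM in myelinating Schwann cells to 117 and 121 in SGC state 1, whereas *Ece2* had at most 28 UMIs in a profile. A list of 33 genes of the pathway, ligands, enzymes, G proteins, phospholipases, kinases and regulators, was set against the receptors inside each type. Of the 30 tested, *Itpr1*, an IP3 receptor, and *Rock2*, a serine/threonine kinase, were lower in *Ednrb*-high non-myelinating Schwann cells (log2 -0.71 and -0.43). Over all genes 2.21% were lower there, and nothing particular to the list is read from these 2. In that type none of the list was higher, and none passed in the other 7 types. The list's medians lay between -0.01 and 0.08 on the log2 scale, beside 0 to 0.01 over all genes.

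Between types the differences of this list are a description, since all but its ligand and converting enzyme genes were open to the clustering. From SGC state 1 to state 2, *Mme* was lower by 2.02 and *Prkca*, a protein kinase C, higher by 0.77 on the log2 scale, in 2 higher and 4 lower of 32 genes (13.3% of all genes were called). From SGCs to *Pou3f1*-positive glia 4 were higher and 9 lower of 32 (33.8% of all genes called), among them *Mme* (-1.84) and *Prkca* (0.88). From smooth muscle cells to pericytes 5 were higher and 6 lower of 32 (19.4% of all genes called). These counts are given as a description and nothing particular to the list is read from them. *Rgs5*, which limits signalling of G-protein-coupled receptors, lay 3.31 higher in pericytes, *Prkcd* 3.22 lower and *Mylk*, the myosin light chain kinase, 2.62 lower on the log2 scale. Of 14 contractile genes 12 were lower in pericytes than in smooth muscle cells, with a median of -3.32. Many of these, such as *Acta2* and *Myh11*, are smooth muscle markers from which the types were named, and *Rgs5* is a pericyte marker. Their differences were thus in part built into the naming and are no measure to set beside *Ednra*.

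The genes with the pattern most like that of each receptor were sought over the 16 profiles of type and sample, among 9484 genes, by Pearson's r of log2(CPM + 1). For *Ednrb* they were *Col11a1*, a collagen chain (0.988), *Calr*, the chaperone calreticulin (0.985), *Fbxl7* (0.975), and *Pdia6* and *Pdia3*, protein disulphide isomerases (0.972 and 0.971). *Col11a1* followed *Ednrb* from 352 and 356 CPM in *Pou3f1*-positive glia through 208 and 208 in SGC state 2 and 140 and 147 in SGC state 1 to 13.1 and 11.3 in myelinating Schwann cells. *Calr* covered a narrower range, from 376 and 360 CPM in *Pou3f1*-positive glia to 168 and 166 in smooth muscle cells, and its values in the SGC states overlapped (331 and 338 in state 2, 326 and 342 in state 1). For *Ednra* they were *Ptp4a3*, a phosphatase (0.997), *Gper1*, a G-protein-coupled receptor of oestrogen (0.992), *Mast4* (0.992), *Isyna1* (0.99) and *Capzb* (0.989). *Ptp4a3* was at 835 and 729 CPM in pericytes, 822 and 715 in intermediate mural cells and 633 and 708 in smooth muscle cells, against at most 22.6 CPM in glia. All 5 were higher in each mural profile than in any glial one, but their order inside the mural types varied. *Isyna1* fell from 133 and 129 CPM in pericytes to 65.5 and 63.9 in smooth muscle cells. *Mast4* was at 1047 and 1067 CPM in smooth muscle cells and lower, at 881 and 891, in intermediate mural cells, unlike *Ednra*. Profiles of a replicate share a library, and the values describe likeness over these 8 types alone.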

How the data were processed

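The authors deposited 1 unfiltered matrix of UMI counts per gene and barcode for each of the 2 samples, made with Cell Ranger on mm10 per the submitters' processing notes; no normalization had been applied. Cells were called from the UMI total and, below it, from their difference from empty droplets (barcode ranks 45000 to 90000), with at least 300 genes, and those over 5 median absolute deviations in mitochondrial share (over 21.8%) or UMIs (over 45769) were removed. The libraries held 119101743 and 128668771 UMIs, of which 90.1% and 86.5% were in cells. Doublets were scored from simulated pairs of cells (7.25% of cells) and kept in the main analysis. Clustering used Seurat 5.3.0 with sctransform 0.4.2 in R 4.3.3 (3000 variable genes, 30 principal components, resolution 0.8; mural cells sub-clustered at 0.3), and clusters were named by hand from marker lists. The members, gene lists and cluster names were chosen with earlier results of these data known.

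UMIs were summed per sample and type, or per part of a type with at least 20 cells, and tested with edgeR 4.0.16 (TMM, quasi-likelihood test, Benjamini-Hochberg adjustment over all genes tested, threshold 0.05). Genes named inside a type were the 10 higher and 10 lower with the largest change among those called with the same sign in both samples and a mean of at least 20 CPM; others stand in the text as list members or were chosen after their values were seen, and a few genes are not reported here. Cells were thinned to 3000 UMIs with Python 3.11.15 and numpy 2.4.6. Intervals and floors (3 counts) cover counting error only. On simulated counts of 14184 genes, a 1.5-fold change was recovered for 93% of genes in SGC state 1, 92% in SGC state 2, 73% in *Pou3f1*-positive glia, 60% in non-myelinating and 80% in myelinating Schwann cells, and 5% in pericytes. Profiles with the same replicate number come from the same library and are paired by it; their deviations correlated with r from 0.0507 to 0.709 (median 0.183) over 28 pairs of types and 1808 genes. Alternatives were DESeq2 1.42.0, no filter on low counts, no TMM, the replicate block, doublets left out, empty-droplet RNA subtracted, other cell calling, depths, resolutions and parts, and leaving out a replicate. Those on shared barcodes, mixed clusters, mural sub-clustering and finer clusters were chosen after seeing the data.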

Additional observations from a re-analysis of the deposited data

How the results depend on the processing

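Alternatives were run for 5 of the comparisons of level, and the 4 of *Ednrb* among them kept their direction and their side of the threshold under each one run. The other comparisons of level (*Pou3f1*-positive glia with SGC state 2, the SGC state 1 and Schwann cell steps and those with intermediate mural cells) were not run under alternatives. For the 4 of *Ednrb* that were run, log2 differences ranged over 0.21 to 0.36 between the SGC states and 0.52 to 0.75 for *Pou3f1*-positive glia over SGCs. They ranged over 1.87 to 2.25 for these glia over non-myelinating Schwann cells and 2.30 to 4.17 for pericytes over smooth muscle cells. With each replicate left out the 4 were, in this order, 0.21 and 0.29, 0.52 and 0.57, 2.06 and 2.12, and 2.30 and 3.37. *Ednra* in pericytes over smooth muscle cells was 0.32 and 0.35 with a replicate left out, 0.34 with DESeq2, 0.12 at a clustering resolution of 1.2, 0.33 with mural sub-clustering at 0.5 and -0.20 with mixed clusters kept, and its adjusted p ran from 0.000414 to 0.608. The replicate block changed no call among these 5.

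Counts of genes that varied with a receptor inside a type depended more on the setting. For SGC state 1, SGC state 2, *Pou3f1*-positive glia and myelinating Schwann cells, DESeq2 gave 6, 140, 93 and 307, no filter on low counts 22, 151, 106 and 282, and the replicate block 12, 220, 89 and 306. In pericytes and intermediate mural cells DESeq2 gave 11 and 10 and no filter 11 and 16, with 18 in smooth muscle cells. Ranking after thinning to 1000 UMIs gave 0, 12, 13 and 14 in the first 4 types named, 268 in non-myelinating Schwann cells and 3 in intermediate mural cells. Ranking at 5000 UMIs gave 16, 156, 74 and 397, and 1, 0 and 11 in the 3 mural types. Comparing all cells above with all cells below the middle rank gave 0, 27, 15 and 42. The largest finer cluster gave 1, 34, 17 and 87, and 338 in non-myelinating Schwann cells. Without doublets 38 passed in myelinating Schwann cells, 0 in intermediate mural cells and 1 in smooth muscle cells. Library size without TMM gave 1 in SGC state 1, and subtracting empty-droplet RNA 2 in intermediate mural cells. Resolution 0.4 gave 12 in SGC state 1 and merged SGC state 2 with *Pou3f1*-positive glia, which then had no value. Resolution 1.2 gave 23 in SGC state 2, 66 in myelinating Schwann cells and 256 in pericytes. Cells called from the UMI total alone gave 4, 28 and 51 in the first 3 glial types and 4 in intermediate mural cells. Mixed clusters kept gave 1 in SGC state 1, 1508 in myelinating Schwann cells, 980 in pericytes and 0 in intermediate mural cells, and mural sub-clustering at 0.5 gave 2 in intermediate mural cells. The causes were not tested. The 81 named entries kept their direction in all 1177 pairs of gene and setting and were still called in 995. Leaving out a replicate left no residual degrees of freedom inside a type, so those counts were not run.

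The spread beyond counting, as a mean of the replicates, was 33.6% in SGC state 1, 47.2% in SGC state 2, 140% in myelinating Schwann cells, 21% for *Ednrb* and 16.8% for *Ednra* in pericytes and -31.9% in intermediate mural cells after thinning to 1000 UMIs. At 5000 UMIs it was 46.5% in SGC state 2 and 140% for *Ednrb* in pericytes. Without doublets it was 49.6% in SGC state 2 and 128% in myelinating Schwann cells. Resolution 1.2 gave 46.8% in SGC state 2 and 145% for *Ednrb* in pericytes, calling by UMI total 47.1% and 119%, and mixed clusters kept 126% in the latter and 164% in myelinating Schwann cells. The largest finer cluster gave 36.5%, 46.8% and 91.7% in SGC state 1, SGC state 2 and non-myelinating Schwann cells. By replicate the spread was 37.5% and 41.4%, 48.2% and 49.2%, 48.3% and 51.8%, 108% and 132%, and 143% and 150% in the glial types, 110% and 115% for *Ednrb* in pericytes, and for *Ednra* 66.0% and 80.9% in pericytes, -4.60% and 43.2% in intermediate mural cells and -8.54% and 34.0% in smooth muscle cells. Depth and cell number limit the mural values most.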
